A study of Rattus norvegicus with 30 samples.

Results

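The 3 genes described here are Nfe2l2 (ENSRNOG00000001548), Hmox1 (ENSRNOG00000014117) and Nqo1 (ENSRNOG00000012772). They were chosen by identifier, as the gene of the transcription factor Nrf2 and those of 2 of its best-known target enzymes, and all 3 were found among the 26404 genes of each count table. The tables give Ensembl identifiers without names. The names come from the definition of this gene group, and the name table used here held 0 Ensembl identifiers, so the pairing was not checked against it.

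mRNA was sequenced from the perilesional cortex, the ipsilateral thalamus and the hippocampus of 5 rats with traumatic brain injury (TBI) and 5 sham-operated rats, all adult male Sprague-Dawley animals, at 3 months after the operation. TBI (rats 6 to 10) was induced by lateral fluid percussion, in which a pressure pulse strikes the intact dura through an opening in the skull. The sham-operated animals (rats 1 to 5) shared the anesthesia and the surgery and were not given the pulse. The same 10 rats gave all 3 areas, so that 30 libraries of bulk dissected tissue were compared. The tissue label of the third area is the dorsal hippocampus, and the dissection notes describe the dentate gyrus with part of CA3. More cells of a type and more RNA per cell, or fewer cells and less RNA per cell, cannot be told apart in such tissue, and markers of cell types and of the dissected areas were not analysed here, because the identifiers were not paired with names.

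Nrf2 is held in the cytoplasm by Keap1, which hands it to the proteasome. Oxidants and electrophiles modify Keap1, and Nrf2 then enters the nucleus, joins a small Maf protein and binds antioxidant response elements in its target genes. Because this control acts mainly on the protein, the Nfe2l2 mRNA measures the transcript, and neither the amount of the factor nor its activity. Hmox1 encodes heme oxygenase 1, which opens heme to biliverdin, iron and carbon monoxide and is induced in microglia and macrophages that take up blood and debris. Nqo1 encodes a quinone reductase that detoxifies quinones without releasing semiquinone radicals, and it is found in astrocytes and vessels among other cells.

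The RefSeq promoter table (build GRCr8) matched 2 of the 3 genes, Nfe2l2 and Nqo1, and both promoters are shown. Hmox1 had no entry. A link between these sequences and the response to TBI was not tested. Each run below holds the 250 bases before the annotated start, 5′ to 3′ on the gene's own strand, which is the minus strand for both. The full windows of 300 bases, including 50 after the start, lie at chr3:81028950-81029249 for Nfe2l2 and at chr19:52220218-52220517 for Nqo1. Capitals mark matches to the GC box (GGGCGG) or the TATA box (TATAAA), searched on both strands.
Nfe2l2: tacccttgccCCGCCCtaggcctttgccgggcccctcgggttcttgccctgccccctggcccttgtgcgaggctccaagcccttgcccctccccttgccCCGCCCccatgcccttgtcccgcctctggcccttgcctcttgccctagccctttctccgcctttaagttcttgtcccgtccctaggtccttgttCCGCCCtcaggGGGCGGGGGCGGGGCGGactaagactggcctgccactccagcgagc
Nqo1: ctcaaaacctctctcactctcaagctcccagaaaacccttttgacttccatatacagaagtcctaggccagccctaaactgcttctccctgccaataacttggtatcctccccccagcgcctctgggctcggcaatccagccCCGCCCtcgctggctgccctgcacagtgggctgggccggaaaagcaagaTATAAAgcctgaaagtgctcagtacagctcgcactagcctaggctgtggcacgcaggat
The Nfe2l2 window held 6 GC boxes, of which those at bases 211 to 216 and 216 to 221 share a base, no TATA box, and 68.0% G and C. The Nqo1 window held 1 GC box, 1 TATA box and 56.3% G and C. A GC box was present in 33.1% and a TATA box in 14.2% of the 33469 promoter windows of this length. The core of the antioxidant response element, TGACNNNGC, was matched 1 time in the Nfe2l2 window, on the gene's strand from 39 bases after the start, and 12.1% of all windows held it. The match stands in capitals in the last 30 bases of that window, 21 to 50 after the start.
Nfe2l2 after the start: actgctccgactagccatTGACGCCGCctc
The Nqo1 window held no match to these letters, and bases outside the windows were not searched for either gene. A match describes the sequence and does not show a site in use.

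Each library held between 21992859 and 31799879 counted reads. The counts behind the values below were 118 to 1033 reads for Nfe2l2, 46 to 849 for Hmox1 and 82 to 924 for Nqo1. Levels are given as CPM (counts scaled to a common library size) after TMM scaling within each brain area. 2 features of the hippocampal libraries touch the results. In sham-operated rats 4 and 5, the 10 most counted genes took 44.1% and 40.9% of the counts, against 9.95% to 16.4% in the other hippocampal libraries. The hippocampal libraries labelled rat 3 (sham) and rat 8 (TBI) went against their labels. At 34 genes these rats lay at least 2 apart on the log2 scale, in the same direction, in both cortex and thalamus, and at all 34 the hippocampal libraries differed in the opposite direction, at 1 of them by at least 2. In the 16 pairs of a sham-operated and a TBI rat that do not include them, the share of such genes with an opposite direction was 0% to 23.1%. Of the 34 genes, 6 were not called for TBI in the cortex, and all 6 were opposite. Most of these genes follow the injury, so leaving out these libraries is not independent of the response. Hippocampal fold changes and differences in response are given with and without them, under the labels as deposited.

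In the perilesional cortex, all 3 genes were upregulated at 3 months after TBI, and no TBI library overlapped with a sham library in any of them. Hmox1 changed most, to 2.39 times the sham mean, whereas Nfe2l2 and Nqo1 reached 1.56 and 1.60 times. Among all 17185 genes tested, 14.2% were called higher after TBI, and 10.2% had all TBI libraries above all sham libraries.

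Nfe2l2, the gene of the transcription factor, stood at 10.6, 15.2, 16.2, 17.5 and 17.0 CPM in sham-operated rats 1 to 5 and at 28.9, 24.4, 21.4, 22.6 and 21.9 CPM in TBI rats 6 to 10. Sham-operated rat 1 was the lowest and TBI rat 6 the highest, and the groups did not overlap. The mean was 15.3 ± 2.76 CPM (SD, n = 5) in sham and rose to 23.8 ± 3.05 CPM (SD, n = 5). The log2 fold change was 0.64 (standard error 0.13, 95% interval 0.36 to 0.91, adjusted p = 0.00234, edgeR's quasi-likelihood test).

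Hmox1, the heme oxygenase gene, had 4.61, 3.85, 3.84, 4.32 and 3.37 CPM in sham-operated rats 1 to 5 and 11.2, 10.2, 9.42, 8.51 and 8.46 CPM in TBI rats 6 to 10. TBI rat 10, the lowest of the injured animals, lay far above sham-operated rat 1, the highest of the sham group. The sham mean of 3.997 ± 0.481 CPM (SD, n = 5) rose to 9.55 ± 1.16 CPM (SD, n = 5). The log2 fold change was 1.26 (standard error 0.12, 95% interval 1.01 to 1.51, adjusted p = 5.79e-06, edgeR). Of all genes tested in the cortex, 2.51% had a higher log2 fold change, compared with 9.53% for Nfe2l2 and 8.70% for Nqo1.

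Nqo1, the quinone reductase gene, had 8.08, 8.70, 10.1, 10.1 and 10.2 CPM in sham-operated rats 1 to 5 and 14.3, 16.2, 17.2, 15.5 and 12.6 CPM in TBI rats 6 to 10. TBI rat 10 was the lowest of the injured animals and still lay above all sham libraries. The sham mean was 9.45 ± 0.990 CPM (SD, n = 5) and the TBI mean 15.1 ± 1.75 CPM (SD, n = 5), and the log2 fold change was 0.68 (standard error 0.11, 95% interval 0.45 to 0.91, adjusted p = 0.000426, edgeR).

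The 10 most counted genes took 20.3% to 29.6% of the cortical counts in the sham-operated animals and 14.1% to 23.8% after TBI, so the makeup of the libraries moved with the groups. Scaled by library totals alone, the median log2 fold change of all cortical genes was 0.21 instead of -0.01, and 94.1% of the called genes were higher instead of 54.9%. Under that scaling the log2 fold changes were 0.85 for Nfe2l2, 1.49 for Hmox1 and 0.88 for Nqo1 (adjusted p = 0.00393, 7.82e-06 and 0.000446, edgeR), or 0.65, 1.28 and 0.67 after subtracting the median, which takes out the shift that a scaling gives to all genes.

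**Figure D1:**
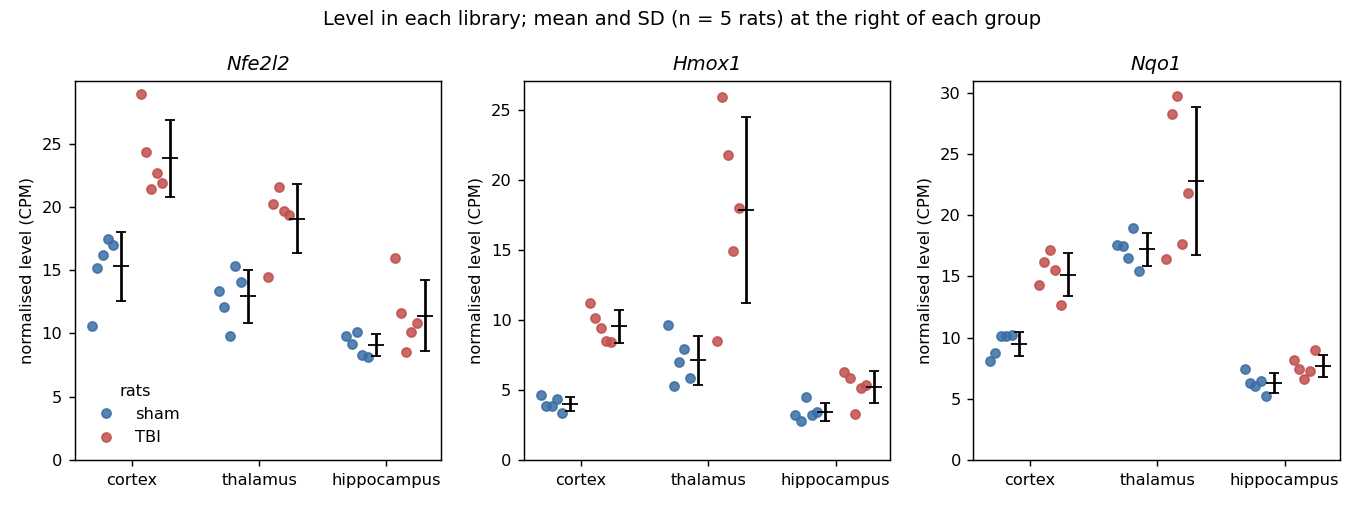
Normalised level in CPM (scaled within each brain area, axes from 0) of each gene in each library, blue for sham and red for TBI, with the group mean and SD (n = 5 rats) as black bars. In the cortex every TBI library lay above every sham library for all 3 genes, and in the thalamus TBI rat 6 was the lowest TBI library for all 3.

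In the thalamus, Nfe2l2 and Hmox1 passed the threshold after TBI and Nqo1 did not, and TBI rat 6 stayed among the sham libraries for all 3 genes. Among the 16605 genes tested there, 3.77% were called higher after TBI, and 2.75% had all TBI libraries above all sham libraries, which none of the 3 genes had.

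Hmox1 again had the largest fold. Its level was 9.68, 5.26, 6.97, 7.90 and 5.85 CPM in sham-operated rats 1 to 5 and 8.54, 25.9, 21.8, 14.9 and 18.0 CPM in TBI rats 6 to 10. TBI rats 7 to 10 were above all sham libraries, and TBI rat 6 fell below sham-operated rat 1. The sham mean was 7.13 ± 1.75 CPM (SD, n = 5) and the TBI mean 17.8 ± 6.64 CPM (SD, n = 5), 2.50 times the sham mean. The log2 fold change was 1.32 (standard error 0.26, 95% interval 0.75 to 1.89, adjusted p = 0.0229, edgeR), and 0.909% of the genes tested had a higher one. Without rat 3, 5, 7, 8 or 10, the adjusted p lay between 0.0583 and 0.0690 and the log2 fold change between 1.14 and 1.32. The fits without rat 3, 5, 7 or 8 called 0 genes of all tested. The fit without rat 10 called 67, against 934 with all rats. Without TBI rat 6 the adjusted p was 0.000853 and the log2 fold change 1.51, in a fit that called 2421 genes. With all rats, the adjusted p was 0.000134 in DESeq2, 0.0054 in limma voom and 9.75e-05 in edgeR over all brain areas.

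Nfe2l2 was measured at 13.3, 12.1, 9.82, 15.3 and 14.1 CPM in sham-operated rats 1 to 5 and at 14.5, 20.3, 21.6, 19.7 and 19.4 CPM in TBI rats 6 to 10. Here too TBI rats 7 to 10 were above all sham libraries, and rat 6 was below sham-operated rat 4. The sham mean was 12.9 ± 2.11 CPM (SD, n = 5) and the TBI mean 19.1 ± 2.71 CPM (SD, n = 5). The log2 fold change of 0.56 (standard error 0.15, 95% interval 0.24 to 0.88) had an adjusted p of 0.0455 in edgeR, close to the threshold. That call was lost when any single rat other than rat 6 was left out. The adjusted p then lay between 0.0534 and 0.121 and the log2 fold change between 0.47 and 0.63. Without rat 6 the adjusted p was 0.00868. The fits without rat 3, 5, 7 or 8 called 0 genes of all tested. With all rats, the adjusted p was 0.00801 in DESeq2, 0.0217 in limma voom and 0.0104 in edgeR over all brain areas. In edgeR without the filter on low counts it was 0.0554.

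Nqo1 had 17.6, 17.5, 16.5, 19.0 and 15.5 CPM in sham-operated rats 1 to 5 and 16.4, 28.2, 29.7, 17.7 and 21.8 CPM in TBI rats 6 to 10. Rats 7, 8 and 10 were above all sham libraries, whereas rats 6 and 9 lay among them. The mean was 17.2 ± 1.31 CPM (SD, n = 5) in the sham-operated animals and 22.8 ± 6.02 CPM (SD, n = 5) after TBI, and the log2 fold change was 0.41 (standard error 0.17, 95% interval 0.05 to 0.77, adjusted p = 0.165, edgeR). It passed the threshold without TBI rat 6 (0.51, adjusted p = 0.0482) and in a fit of all brain areas together (0.38, adjusted p = 0.0374). Many more genes passed in these fits, 2421 and 3457 in either direction against 934 in the fit with all rats of the thalamus.

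**Figure D2:**
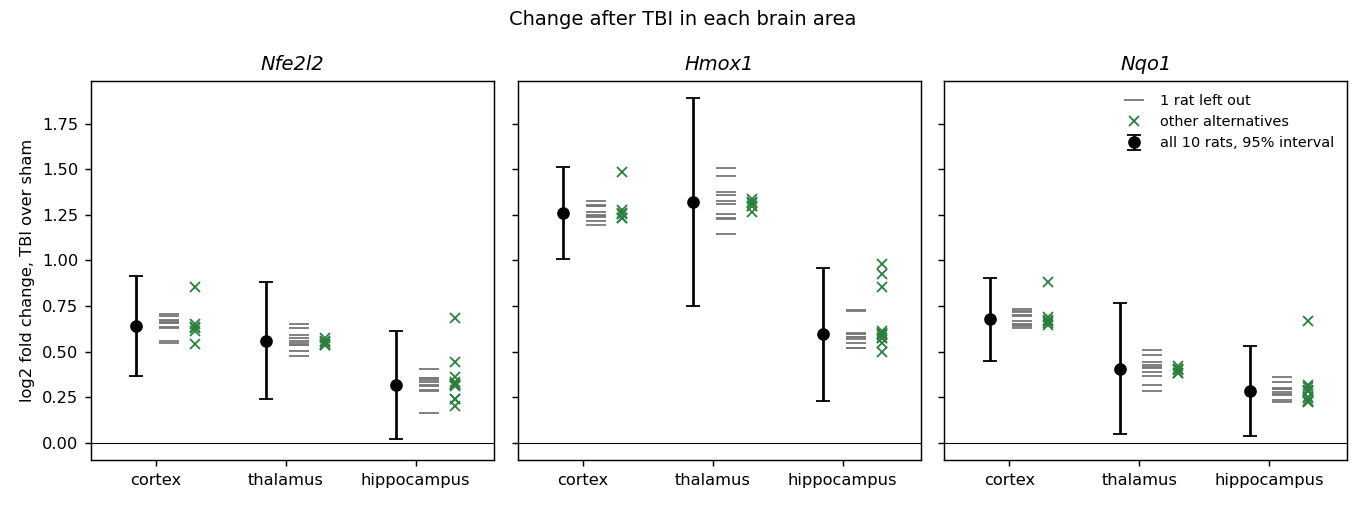
log2 fold change of TBI over sham (vertical axis) in each brain area, with all 10 rats as a black point with its 95% interval, each rat left out in turn as grey dashes, and the other alternatives as green crosses. Every value was above 0, and Hmox1 had the largest fold change of the 3 genes in each area, at 1.26, 1.32 and 0.60 in the cortex, thalamus and hippocampus.

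In the hippocampus with all 10 libraries, none of the 3 genes passed the threshold, and of the 16963 genes tested 0% were called higher after TBI. edgeR called no gene there, 1432 genes had an unadjusted p under 0.05, DESeq2 called 41 and limma voom called 0. All TBI libraries lay above all sham libraries for 0.519% of genes, and for none of these 3.

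Hmox1 had 3.21, 2.75, 4.49, 3.24 and 3.40 CPM in sham-operated rats 1 to 5 and 6.27, 5.83, 3.30, 5.13 and 5.39 CPM in TBI rats 6 to 10. The overlap came from the library labelled rat 8, which lay below sham-operated rats 3 and 5, whereas the other TBI libraries were above all sham libraries. The library labelled rat 3 was the highest of the sham group. The mean was 3.42 ± 0.648 CPM (SD, n = 5) in the sham-operated animals and 5.18 ± 1.14 CPM (SD, n = 5) after TBI, and the log2 fold change was 0.60 (standard error 0.17, 95% interval 0.23 to 0.96, adjusted p = 0.505, edgeR). Of the genes tested, 1.60% had a higher log2 fold change.

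Without the libraries labelled rat 3 and rat 8, the log2 fold change of Hmox1 was 0.85 (standard error 0.14, 95% interval 0.56 to 1.15, adjusted p = 0.00622, edgeR) and the remaining groups of 4 did not overlap. In that fit 1.45% of genes were called higher, and 5.28% had all TBI above all sham libraries. Without rats 4 and 5, the libraries dominated by a few genes, it was 0.57 (adjusted p = 0.850). With all 4 of these rats left out it was 0.93 (standard error 0.18, adjusted p = 0.0452), in a fit that called 0.434% of genes higher. The column names of sham-operated rats 2, 3 and 4 and TBI rats 6 to 9 share a mark that may stand for a flow cell, and among these libraries the value was 0.55 (adjusted p = 0.890).

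Nfe2l2 stood at 9.79, 9.18, 10.1, 8.31 and 8.15 CPM in sham-operated rats 1 to 5 and at 15.9, 11.6, 8.496, 10.1 and 10.8 CPM in TBI rats 6 to 10. Rat 6 was the highest, rat 9 was level with sham-operated rat 3, and the library labelled rat 8 lay within the sham range. The mean was 9.10 ± 0.868 CPM (SD, n = 5) in sham and 11.4 ± 2.79 CPM (SD, n = 5) after TBI. The log2 fold change was 0.32 (standard error 0.14, 95% interval 0.02 to 0.61, adjusted p = 0.568, edgeR). Without rats 3 and 8, the highest sham and the lowest TBI library for this gene, the groups of 4 did not overlap. In that set 5.28% of genes had all TBI above all sham libraries, against 0.519% with all 10 libraries. The log2 fold change was then 0.44 (adjusted p = 0.173). It was 0.24 without rats 4 and 5 (adjusted p = 0.859), 0.36 without all 4 (adjusted p = 0.474), 0.17 without TBI rat 6 (adjusted p = 0.682) and 0.32 among the libraries that share the mark (adjusted p = 0.890).

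Nqo1 had 7.45, 6.25, 6.04, 6.48 and 5.26 CPM in sham-operated rats 1 to 5 and 8.20, 7.44, 6.59, 7.30 and 8.94 CPM in TBI rats 6 to 10. Rats 6 and 10 were above all sham libraries, and sham-operated rat 1 was level with TBI rat 7. The mean was 6.29 ± 0.791 CPM (SD, n = 5) in sham and 7.70 ± 0.901 CPM (SD, n = 5) after TBI, and its log2 fold change was 0.28 (standard error 0.12, 95% interval 0.04 to 0.53, adjusted p = 0.531, edgeR). It was 0.32 without rats 3 and 8 (adjusted p = 0.329), 0.23 without rats 4 and 5 (adjusted p = 0.850), 0.22 without all 4 (adjusted p = 0.616) and 0.25 among the libraries that share the mark (adjusted p = 0.890). Without rats 3 and 8 the groups of 4 still overlapped for Nqo1, with the lowest TBI library at 7.08 CPM and the highest sham library at 7.22 CPM.

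**Figure D3:**
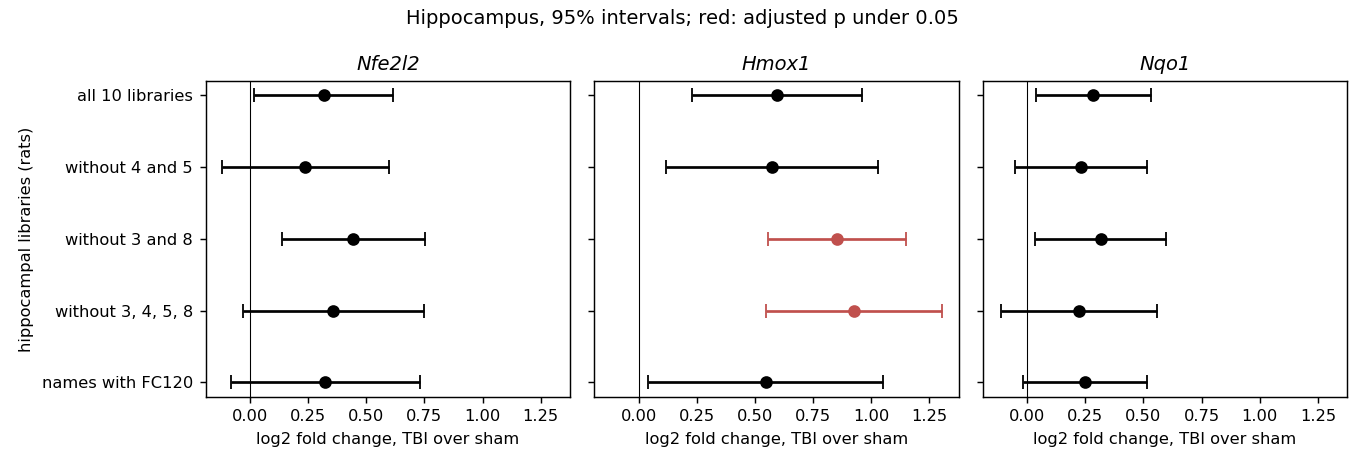
log2 fold change of TBI over sham in the hippocampus (horizontal axis) with 95% intervals, for all 10 libraries for the sets that leave out the rats named at the left and, in the lowest line, for the libraries whose column names share a mark, red where the adjusted p was under 0.05. Only Hmox1 passed the threshold, at 0.85 without rats 3 and 8 and at 0.93 without rats 3, 4, 5 and 8.

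The responses of 2 areas were compared by an interaction term in edgeR, and each difference is given as the second area minus the first. No difference passed the threshold for any of the 3 genes. Between cortex and thalamus, where 0.44% of genes were called, the difference was 0.01 for Hmox1 (95% interval -0.62 to 0.65, adjusted p = 0.999), -0.13 for Nfe2l2 (95% interval -0.55 to 0.28, adjusted p = 0.935) and -0.33 for Nqo1 (95% interval -0.73 to 0.08, adjusted p = 0.681).

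Between cortex and hippocampus, 3.04% of genes were called. The hippocampal minus cortical response was -0.64 for Hmox1 (95% interval -1.09 to -0.18, adjusted p = 0.111), -0.29 for Nfe2l2 (95% interval -0.71 to 0.12, adjusted p = 0.449) and -0.36 for Nqo1 (95% interval -0.69 to -0.04, adjusted p = 0.201). Without the hippocampal libraries of rats 3 and 8, these differences were -0.41, -0.20 and -0.36, with adjusted p of 0.281, 0.718 and 0.332 in edgeR. Without those of rats 4 and 5 they were -0.65, -0.36 and -0.41, with adjusted p of 0.172, 0.416 and 0.210.

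Between thalamus and hippocampus, 0% of genes were called in edgeR, whereas 2356 had an unadjusted p under 0.05, DESeq2 called 172 and limma voom called 728. The difference was -0.68 for Hmox1 (95% interval -1.37 to 0.01, adjusted p = 0.377), -0.19 for Nfe2l2 (95% interval -0.63 to 0.24, adjusted p = 0.741) and -0.07 for Nqo1 (95% interval -0.50 to 0.35, adjusted p = 0.921). Without a single rat in both areas, the Nfe2l2 difference lay between -0.45 (without rat 6) and -0.06 (without rat 8), and no such value passed the threshold. Without the hippocampal libraries of rats 3 and 8, the differences were -0.43 for Hmox1, -0.06 for Nfe2l2 and -0.04 for Nqo1. Their adjusted p were 0.743, 0.965 and 0.984 in edgeR. Without those of rats 4 and 5 the differences were -0.71, -0.29 and -0.14, with adjusted p of 0.548, 0.732 and 0.892.

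The order of the injured animals differed between areas and between genes, except that Nfe2l2 and Hmox1 had the same order in the hippocampus. In the cortex, rat 6 had the highest Nfe2l2 and Hmox1 of all rats and was next to the lowest of the TBI group for Nqo1. Rat 8 had the lowest Nfe2l2 of that group (21.4 CPM) and the highest Nqo1 (17.2 CPM), and rat 10 had the lowest Hmox1 and Nqo1. In the thalamus, rats 7 and 8 were the highest for all 3 genes and rat 6 was the lowest TBI library for all 3. In the hippocampus, rat 6 was again the highest for Nfe2l2 and Hmox1, rat 10 for Nqo1, and the library labelled rat 8 was the lowest of the TBI group for all 3. With 5 animals per group, a correlation within a group was not computed.

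**Figure D4:**
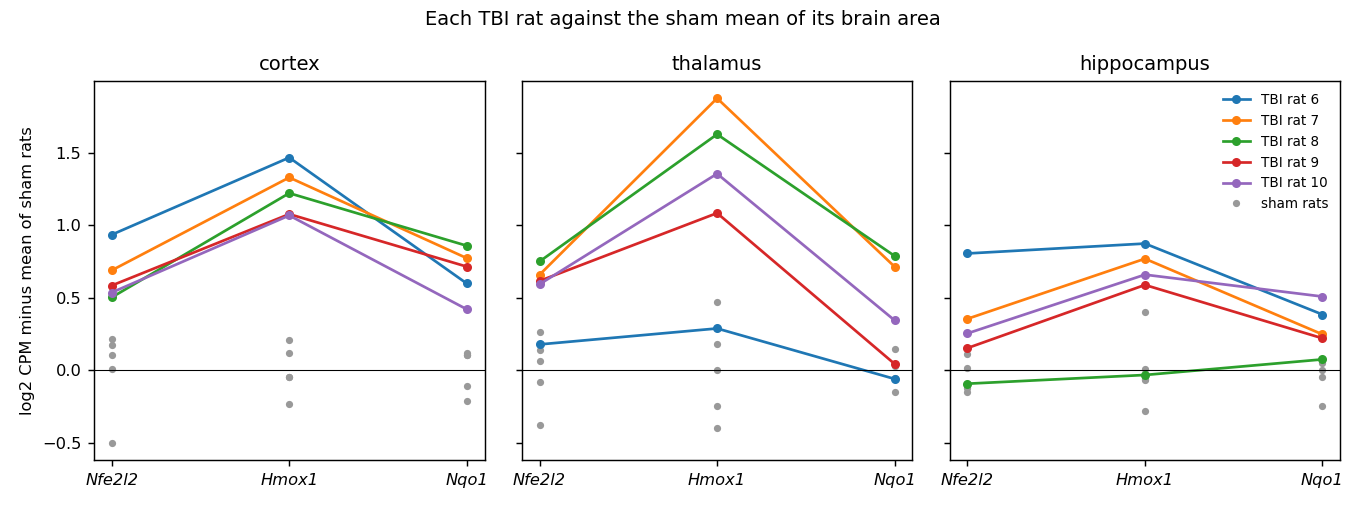
log2 CPM of each TBI rat (coloured lines) minus the mean of the sham-operated rats of that brain area, for the 3 genes in turn, with the sham-operated rats as grey points. The rat 6 line is the lowest in the thalamus and the highest for Nfe2l2 and Hmox1 in the cortex, and the rat 8 line is the lowest in the hippocampus.

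The ratio of the counts of 2 genes in a library needs no scaling between libraries. In the cortex, the Hmox1 to Nfe2l2 ratio was 0.274 ± 0.0922 (SD, n = 5) in the sham-operated animals and 0.402 ± 0.0268 (SD, n = 5) after TBI. The ranges were 0.198 to 0.435 and 0.376 to 0.441, and sham-operated rat 1, whose Nfe2l2 count was the lowest of the cortex, was the sham library inside the TBI range. In the thalamus, the ratio was 0.561 ± 0.148 (SD, n = 5) and 0.914 ± 0.261 (SD, n = 5), with ranges of 0.415 to 0.726 and 0.590 to 1.28. In the hippocampus, it was 0.376 ± 0.0609 (SD, n = 5) and 0.458 ± 0.0612 (SD, n = 5). The groups overlapped in every area.

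The Nqo1 to Nfe2l2 ratio moved less. It was 0.628 ± 0.0773 (SD, n = 5) in sham and 0.644 ± 0.116 (SD, n = 5) after TBI in the cortex, 1.36 ± 0.221 and 1.19 ± 0.205 (SD, n = 5 each) in the thalamus, and 0.693 ± 0.0767 and 0.696 ± 0.122 (SD, n = 5 each) in the hippocampus. Each difference between the means was smaller than the SD of either group. Gene lengths were not used, so the ratios compare libraries and do not rank the genes by level.

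**Figure D5:**
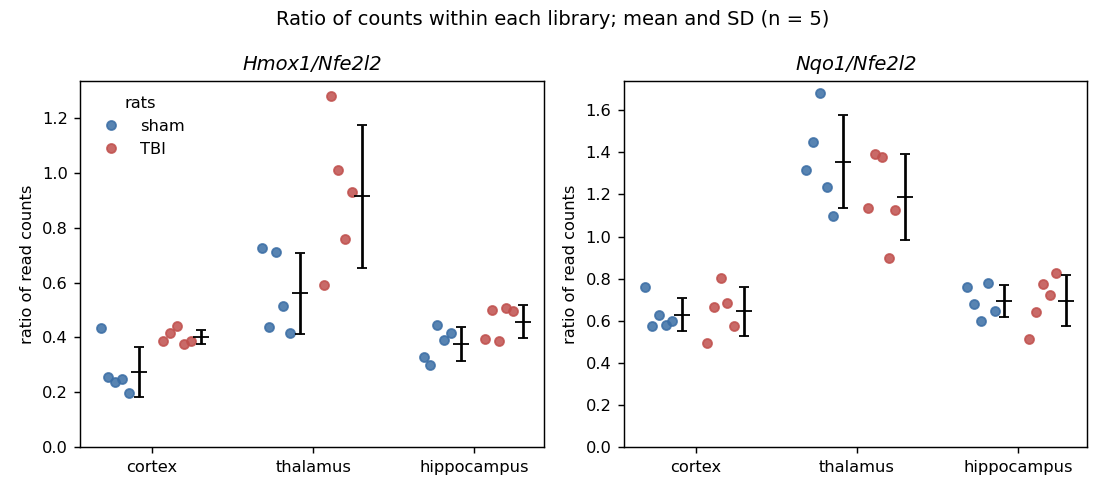
Ratio of the read counts of Hmox1 to Nfe2l2 and of Nqo1 to Nfe2l2 in each library (axes from 0), blue for sham and red for TBI, with the mean and SD (n = 5 rats) as black bars. The Hmox1 to Nfe2l2 mean was 0.274 in sham and 0.402 after TBI in the cortex and 0.561 and 0.914 in the thalamus, whereas the Nqo1 to Nfe2l2 means differed by less than their SD.

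In the sham-operated animals, the mean of Nfe2l2 was highest in the cortex and those of Hmox1 and Nqo1 in the thalamus, and all 3 were lowest in the hippocampus. The levels of this paragraph are CPM after TMM scaling over all 30 libraries together. Nfe2l2 was highest in the cortex (15.6 ± 2.78 CPM, SD, n = 5), followed by the thalamus (11.5 ± 1.88 CPM, SD, n = 5) and the hippocampus (10.2 ± 0.947 CPM, SD, n = 5). Hmox1 was highest in the thalamus (6.33 ± 1.44 CPM, SD, n = 5), above the cortex (4.08 ± 0.521 CPM, SD, n = 5) and the hippocampus (3.81 ± 0.719 CPM, SD, n = 5). Nqo1 had 15.3 ± 1.04 CPM (SD, n = 5) in the thalamus, 9.63 ± 0.981 CPM (SD, n = 5) in the cortex and 7.02 ± 0.875 CPM (SD, n = 5) in the hippocampus. After TBI, the means in the cortex, thalamus and hippocampus were 23.9, 16.7 and 12.8 CPM for Nfe2l2, 9.58, 15.6 and 5.81 CPM for Hmox1 and 15.2, 19.95 and 8.62 CPM for Nqo1, so each gene kept the order of its means.

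The thalamus minus cortex difference in sham was -0.47 on the log2 scale for Nfe2l2 (standard error 0.15, adjusted p = 0.0157), 0.61 for Hmox1 (standard error 0.17, adjusted p = 0.00506) and 0.64 for Nqo1 (standard error 0.11, adjusted p = 0.000134) in edgeR, where 68.6% of all genes were called. For Nfe2l2 the adjusted p was 0.0708 without rat 3. The hippocampus minus cortex difference was -0.63 for Nfe2l2 (standard error 0.13, adjusted p = 0.000711) and -0.46 for Nqo1 (standard error 0.12, adjusted p = 0.00383), with 50.7% of genes called. Hmox1 did not differ beyond its spread between these neighbours (-0.10, 95% interval -0.42 to 0.22, adjusted p = 0.607). Hippocampus and thalamus were likewise neighbours for Nfe2l2 without a difference beyond the spread (-0.18, 95% interval -0.46 to 0.10, adjusted p = 0.237). With a rat left out that value lay between -0.28 (without rat 3, adjusted p = 0.0800) and -0.07 (without rat 4). They differed by -0.74 for Hmox1 (standard error 0.18, adjusted p = 0.00293) and by -1.13 for Nqo1 (standard error 0.11, adjusted p = 1.33e-06), with 66.1% of genes called. With the hippocampal library of rat 3 left out, or those of rats 4 and 5, these calls did not change, and the Hmox1 difference from the cortex was -0.23 and -0.06 (adjusted p = 0.229 and 0.826). The methods describe longer reads on another instrument for the thalamus, whereas the labels name a single instrument, and under the first account the sequencing and the brain area cannot be told apart.

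The sham-operated animals also show what the counts can resolve. In the cortex, counting error averaged 5.16% per library for Nfe2l2, 9.93% for Hmox1 and 6.49% for Nqo1, whereas the spread between the 5 sham-operated rats was 18.1%, 12.0% and 10.48% of the mean. In the hippocampus, where Hmox1 had as few as 46 reads, its counting error was 11.7% and its spread 18.9%.

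Over the 30 libraries, with the mean of each brain area subtracted, the Pearson correlation of log2 CPM was 0.82 between Nfe2l2 and Hmox1, 0.79 between Nfe2l2 and Nqo1 and 0.82 between Hmox1 and Nqo1. The libraries come from 10 rats and include the difference between the groups, so these values describe the shared pattern only. Over the 16003 genes tested in all areas, 1% were more like Nfe2l2 than Hmox1 was, and 1.80% more than Nqo1 was. For Hmox1, 3.76% of genes were more alike than Nfe2l2 and 3.61% more than Nqo1. For Nqo1, the shares were 2.14% for Nfe2l2 and 0.894% for Hmox1. The gene most like Hmox1 was ENSRNOG00000014653 (r = 0.969) and the gene most like Nqo1 was ENSRNOG00000014064 (r = 0.905), and neither identifier could be paired with a name. The 5 genes most like Hmox1 had r of 0.964 to 0.969, those of Nqo1 0.889 to 0.905 and those of Nfe2l2 0.898 to 0.902. The log2 fold changes after TBI in the cortex, thalamus and hippocampus were 1.56, 1.71 and 0.78 for ENSRNOG00000014653 and 0.92, 0.78 and 0.33 for ENSRNOG00000014064. Those of the gene most like Nfe2l2 (r = 0.902), likewise without a name, were smaller, at 0.34, 0.31 and 0.09. All are given without a test because the genes were chosen on the same libraries with the TBI difference left in.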

How the data were processed

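The authors aligned the reads of poly-A mRNA libraries to the RN5 (Rnor_5.0) genome with STAR and deposited raw counts of reads per Ensembl gene, without normalization, in a table for each brain area. The counting tool and the use of strand are not given in the sources used here, and the authors' own test was DESeq2 in R 3.1.0 per the labels. Groups and rats were taken from the sample titles, and 0 columns were left unused. The tools were edgeR 4.0.16, DESeq2 1.42.0 and, for voom, limma 3.58.1, all run under R 4.3.3.

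In each area, genes were kept by filterByExpr (minimum count 10, minimum total count 15), scaled by TMM and tested by edgeR's quasi-likelihood test with robust dispersions, and p-values were adjusted by Benjamini-Hochberg over all genes tested at a threshold of 0.05. Areas were compared by an interaction term over both areas, and in sham-operated rats alone. Standard errors are the log2 fold change divided by the root of the F statistic, and 95% intervals are per gene. A prior count of 3 was added for log2 CPM. The methods discard 2 hippocampal libraries for low alignment and keep 3 sham and 5 TBI, so both were sham libraries. They are not named, whether they are rats 4 and 5 is not known, and all 10 entered here. The procedures were also run on simulated data, and the outcome of that run is not given here.

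The same animals gave all areas, so the rat pairs the libraries. Deviations from the group means correlated between areas on average over the 10 rats by 0.0579 for cortex with thalamus, 0.122 for cortex with hippocampus and 0.0384 for thalamus with hippocampus. The rat as a block was an alternative, beside DESeq2, limma voom, RLE factors, no filter, a fit of all areas, rats left out and hippocampal libraries left out. Scaling by library totals, the hippocampal libraries whose column names share a mark that may stand for a flow cell and DESeq2 without sham-operated rats 4 and 5 were added after seeing the data. The genes and lists were chosen with earlier results of these data known. The rule for named genes was the 3 genes, listed Nrf2 pathway genes and the 5 genes most like each of the 3. Lists of pathway genes and cell type markers, 131 symbols in all, were not analysed, because the RefSeq table (GRCr8) pairs none of the Ensembl identifiers with a symbol. For the same reason the identifiers of only 2 of the most alike genes, those most like Hmox1 and Nqo1, are given. 0 other genes had counts identical to one of the 3.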

Additional observations from a re-analysis of the deposited data

How the results depend on the processing

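Over all alternatives for the 3 genes, 380 of 411 values kept their direction and their side of the threshold, 5 passed it newly, 16 lost it and 10 changed sign. In the cortex none of the 3 genes lost its call under any alternative run. In the thalamus, where 934 genes were called, DESeq2 called 1950, limma voom 2692 and a fit of all areas 3457, and with a rat left out the count was 0 to 2421. There Nfe2l2 missed the threshold without the filter (0.54, adjusted p = 0.0554 in edgeR), and with a rat left out the log2 fold changes were 0.47 to 0.65 for Nfe2l2, 1.14 to 1.51 for Hmox1 and 0.29 to 0.51 for Nqo1, which passed in the fit of all areas (0.38). In the hippocampus, DESeq2 called 41 genes, and gave no adjusted p for the 3 genes. Scaling by library totals called 225, with Hmox1 at 0.98 (adjusted p = 0.0353 in edgeR) and the median of all genes at 0.38. Nfe2l2 and Nqo1 were then at 0.69 and 0.67 (adjusted p = 0.171 and 0.197 in edgeR). After subtracting the median, Nfe2l2, Hmox1 and Nqo1 were at 0.30, 0.60 and 0.28. The counts of called hippocampal genes were 263 without rats 3 and 8 (Hmox1 0.85), 82 without rats 3, 4, 5 and 8 (Hmox1 0.93), 1 in DESeq2 without rats 4 and 5, and 0 to 1 with a rat left out. Between the responses of cortex and thalamus, 78 genes differed, against 204 in DESeq2, 208 in limma voom, 49 without the filter and 35 to 110 with a rat left out. With a rat left out that difference was -0.24 to 0.0293 for Nfe2l2, positive without rat 6, and -0.14 to 0.25 for Hmox1, and Hmox1 was at -0.0186 in limma voom. Between cortex and hippocampus, 537 genes differed, against 1041 in DESeq2, 1180 in limma voom, 272 without rats 4 and 5, 126 without rats 3 and 8, 34 without all 4 and 117 to 763 with a rat left out. Between thalamus and hippocampus the counts were 0, 172 in DESeq2, 728 in limma voom and 0 to 849 with a rat left out, and the Nqo1 difference was -0.22 to 0.0884, positive without rats 1, 7 or 8. In sham-operated animals the thalamus minus cortex difference of Nfe2l2 was -0.57 to -0.37 with a rat left out. Against the cortex, with a rat left out, the hippocampal difference in response was -0.42 to -0.19 for Nfe2l2 and the sham difference of Hmox1 was -0.25 to -0.03. The causes of these changes were not tested.

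With the rat as a replicate block, which pairs the areas of an animal, 49 genes differed in response between cortex and thalamus and 1048 between cortex and hippocampus. Hmox1 was then at -0.0384 between cortex and thalamus, and the block changed no call of the 3 genes. The alternatives for lists of pathway genes were not run, since the symbols were not matched to identifiers. Depth limits Hmox1 most, with 46 reads in its lowest library.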
